A study of Mus musculus with 22 samples.

Results

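The array carried 16194 non-control probes whose name is a genomic interval that the array design lists as a lincRNA (long intergenic noncoding RNA) region, out of 55681 non-control probes in all. Of these, 9199 (56.8%) were kept, as were 29614 of 39487 other probes. The kept probes were selected on the scanner's detection flag, which had to read well above background for both replicate arrays in 1 or more of the groups. The kept probes came from 2948 of the 3543 regions on the array. A region can be probed on its forward strand, its reverse strand or both, and a region on 1 strand is called a unit here. The array held 4610 units, of which 3766 had a kept probe. Because the flag came from the arrays analysed here, the counts of detected probes below are a description and were not tested.

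The mice were of the CD1 strain and the aMHC-GFP genotype, and their cardiac fibroblasts (CF) were used. In this genotype a green fluorescent reporter is driven by the promoter of Myh6, which encodes a cardiac myosin, and every group carried the reporter. Day 0 fibroblasts had received no virus. The control fibroblasts were transduced with lacZ, and the reprogramming cells with a retrovirus that carries Mef2c, Gata4 and Tbx5, 3 cardiac transcription factors, in 1 polycistronic transgene (MGT), which yields induced cardiomyocytes. Control and MGT cells were taken on days 3, 5, 7, 10 and 14, with 2 arrays for each of the 11 groups and 22 in all. The labels do not say whether cells were sorted on the reporter, nor whether the arrays of a group came from separate cultures or animals. The p-values thus reflect the spread between arrays, and part or all of that spread may be technical. The series was made to be compared with RNA-seq of single induced cardiomyocytes, and that part was not used here.

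Long intergenic noncoding RNAs are transcribed from stretches between protein-coding genes, and many are spliced and polyadenylated like messenger RNAs. Some act on neighbouring genes, some act elsewhere in the cell, and for many no role is known. As a class they are usually less abundant and more restricted to particular cell types than messenger RNAs, and several have been described in heart development and in cardiac myosin regulation.

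Each probe is 60 bases long, and the sequences below read 5' to 3' on the strand the design names, with mm9 coordinates of the probe. Apart from the microRNA matches at the end, they come from the 3 units with the largest fitted rises and from some falling units. The falling units were picked because a kept probe holds the motif AATAAA, so its presence in them was fixed by the choice. Of 327 pairs of probes on one strand whose places overlap by at least 20 bases, 324 shared their letters when both were read on the strand named. The motif AATAAA, the core of the usual polyadenylation signal, is in capitals wherever it occurs. The first 3 probes lie in the region chr2:113880070-113887230 near the cardiac actin gene Actc1, and none of them holds the motif.
chr2:113882862-113882921 forward: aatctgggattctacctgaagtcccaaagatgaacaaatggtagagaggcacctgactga
chr2:113882975-113883034 forward: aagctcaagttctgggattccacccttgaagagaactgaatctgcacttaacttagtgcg
chr2:113887119-113887178 forward: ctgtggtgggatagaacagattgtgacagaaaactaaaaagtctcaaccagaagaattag

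The next 3 probes follow one another without a gap near Dppa5b. The first belongs to the region chr9:78104935-78116974 and the other two to the overlapping region chr9:78107225-78118850, so the 3 read adjoining sequence and are not independent of one another.
chr9:78116774-78116833 forward: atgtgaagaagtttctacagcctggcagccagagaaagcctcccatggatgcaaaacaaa
chr9:78116834-78116893 forward: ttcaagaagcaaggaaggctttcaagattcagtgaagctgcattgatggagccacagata
chr9:78116894-78116953 forward: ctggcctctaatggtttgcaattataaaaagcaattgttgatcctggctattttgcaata

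Another set is shown for the unit with the largest fitted fall. These probes end at the last base of the region chr19:60220577-60238494, and the last of them holds 1 AATAAA.
chr19:60238315-60238374 forward: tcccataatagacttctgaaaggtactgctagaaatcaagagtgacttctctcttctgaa
chr19:60238375-60238434 forward: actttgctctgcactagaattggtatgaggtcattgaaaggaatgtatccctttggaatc
chr19:60238435-60238494 forward: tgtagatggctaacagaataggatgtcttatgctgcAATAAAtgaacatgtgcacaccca

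One probe of the falling region chr14:106562325-106660675 holds the motif 2 times. The unit's other kept probes, which do not hold it, are not printed.
chr14:106639707-106639766 forward: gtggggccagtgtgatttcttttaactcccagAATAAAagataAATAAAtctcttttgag

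A few kept probes share at least 25 bases with a microRNA hairpin, and here the capitals mark the bases shared with the RefSeq hairpin (GRCm38.p6) of Mir410, Mirlet7c-2 and Mir8110 in that order. MicroRNA hairpins are cut from longer transcripts, which a probe of this kind can also read.
chr12:110981965-110982024 forward: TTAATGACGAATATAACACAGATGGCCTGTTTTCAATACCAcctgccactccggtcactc
chr15:85537022-85537081 forward: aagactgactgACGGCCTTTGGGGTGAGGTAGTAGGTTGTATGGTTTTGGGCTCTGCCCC
chr8:91548632-91548691 forward: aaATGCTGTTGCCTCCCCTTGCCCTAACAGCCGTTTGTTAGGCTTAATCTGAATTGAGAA

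AATAAA stood on the named strand of 362 kept lincRNA probes (3.94%), of 3.89% of the lincRNA probes left out and of 12.6% of the other probes on the array. Read on the opposite strand, 2.76% of the kept lincRNA probes held it. The variant ATTAAA was found in 204 kept lincRNA probes (2.22%), in 2.8% of those left out and in 4.55% of the other probes. The median GC content was 45.0% in the kept lincRNA probes and 43.3% in those left out.

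Values are log2 of the processed signal minus the array's 75th percentile, called the level below, and a difference between groups is a difference of such levels, so 1 is a doubling. That percentile of the signal was 729 on the second day 14 lacZ array and ranged from 1285 to 2124 on the others. The arrays were scanned on 4 slides, of which slide 1 held days 3 and 5, slide 2 days 7 and 10, slide 3 day 0 and day 14 lacZ, and slide 4 day 14 MGT. MGT minus lacZ is therefore measured within a slide on days 3 to 10, while on day 14 it cannot be told apart from the slide, nor can MGT day 14 minus day 0. The course of levels over days within a vector also crosses slides, between days 5 and 7 and between days 10 and 14. Steps there cannot be told apart from the slide. All 10 cardiac fibroblast markers were well above background on every lacZ and MGT array, and 8 of them were called lower and 2 higher in MGT averaged over the 5 days (median difference -0.40). By the same measure, all 10 cardiomyocyte markers were called higher in MGT (median difference 4.37, with Pln above background on no lacZ array), 7 of 8 endothelial markers were called lower (median -1.62), and of 8 macrophage markers 0 were called in either direction. Of 6 smooth muscle markers 1 was called higher (2 under each of the other scalings) and 3 lower. In bulk RNA, fewer cells of a type and less RNA per cell cannot be told apart, and the part of these cell types in the results below was not tested.

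Detection of the lincRNA probes was patchy. On single arrays between 25.5% (second day 14 lacZ array) and 58.6% (first day 14 MGT array) of the lincRNA probes were well above background, against 57.0% to 75.6% of the other probes. Of the kept lincRNA probes, 3511 (38.2%) were above background on both arrays of all 11 groups, whereas 69.7% of the other kept probes were. Another 1296 (14.1%) were kept through 1 group alone (5.95% of the other kept probes), and 917 of these were kept through day 14 MGT, 106 through day 7 MGT, 82 through day 3 lacZ and 71 through day 0. Day 14 MGT is the group that had a slide of its own. Of the 6995 probes left out, 2852 were above background on at least 1 array and 4143 on none.

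At the edge of the rule, probes that just passed and probes that just failed had nearly the same levels. For probes kept through 1 group, the level in the group where it was highest had a median of -5.48 and ran from -6.18 to -3.63 between the 5 and 95 percentiles over probes. For probes above background on at least 1 array but not on both of any group, the median was -5.63 and the same percentiles were -6.65 and -4.16. Replicate arrays of one group differed more for lincRNA probes than for all probes. The median absolute difference between the replicates of a group ran from 0.1444 (day 3 lacZ) to 0.5484 (day 14 lacZ) for lincRNA probes and from 0.07767 to 0.3531 for all kept probes.

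Averaged over days 3 to 14, 3693 of 9198 lincRNA probes with a value (40.2%) passed the test of MGT minus lacZ at an adjusted p under 0.05 (limma, Benjamini-Hochberg over all kept probes), where 54.5% of all kept probes did. Of these, 1910 (20.8%, against 22.3% of all kept probes) were higher in MGT and 1783 (19.4%, against 32.2%) lower. The median difference was -0.01 over the lincRNA probes and -0.06 over all kept probes. At least 1 on the log2 scale separated 329 higher probes (3.58%, against 5.11%) and 223 lower probes (2.42%, against 3.81%), and after normexp background correction these counts were 120 and 52. The split between higher and lower depended on how the arrays were scaled. Higher probes made up 51.7% of the calls as given, 35.0% after normexp correction and 64.6% with the percentile taken over probes above background on every array. Among the 3511 lincRNA probes detected in all 11 groups, 733 were higher and 1159 lower (53.9% called, against 63.9% of all probes so detected). Averaged over days 3 to 10 only, where both vectors shared a slide, 3024 lincRNA probes were called (32.9%, against 53.1% of the other kept probes). Of these, 1502 were higher (16.3%, against 20.8%) and 1522 lower (16.5%, against 32.3%).

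On single days, fewer lincRNA probes were called than among all kept probes. On day 3 the count was 930 (10.1%, against 20.0% of all kept probes), with 504 higher (5.48%, against 8.83%) and 426 lower (4.63%, against 11.1%). Day 5 had 1677 called probes (18.2%, against 28.6%), of which 1051 were higher (11.4%, against 13.7%) and 626 lower (6.81%, against 14.9%). Day 7 had 1370 (14.9%, against 27.5%), of which 664 were higher (7.22%, against 11.5%) and 706 lower (7.67%, against 16.0%). The day 10 calls were 1624 (17.7%, against 29.6%), 759 of them higher (8.25%, against 12.2%) and 865 lower (9.40%, against 17.4%). Day 14, which cannot be told apart from the slide, had the most, 2836 (30.8%, against 39.6%), with 1650 higher (17.9%, against 17.3%) and 1186 lower (12.9%, against 22.3%). The fit shares a single spread per probe over all groups, while the day 14 lacZ replicates differed the most (median 0.5484 for lincRNA probes). When only the arrays compared were fitted, day 14 had fewer calls than day 3, so the order of the days depends on the fit. With the days of one slide averaged, 1998 lincRNA probes (21.7%, against 34.8%) were called over days 3 and 5 and 2269 (24.7%, against 39.5%) over days 7 and 10. Higher probes made up 58.2% of the day 14 calls as given, 13.3% after normexp correction, which moved the median of all probes to -0.30, and 69.2% with the percentile over probes above background on every array. That last scaling also moved the share of higher calls from 54.2% to 65.4% on day 3 and from 46.7% to 57.3% on day 10. In all, 233 lincRNA probes (2.53%, against 4.77% of all kept probes) were called higher on each of the 5 days and 117 (1.27%, against 4.30%) lower on each. Another 160 (1.74%, against 2.45%) were called in both directions on different days.

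The difference itself changed between day 3 and day 10 for 411 lincRNA probes (4.47%, against 9.41% of all kept probes), moving up for 229 (2.49%, against 4.76%) and down for 182 (1.98%, against 4.65%). From day 0 to day 14 in the lacZ cultures, whose arrays shared a slide, 4290 lincRNA probes were called (46.6%, against 60.2%), 2245 higher (24.4%, against 30.1%) and 2045 lower (22.2%, against 30.2%). Higher calls made up 52.3% of these as given and 79.0% after normexp correction, which moved the median of all probes to 0.27. From day 0 to day 14 with MGT, 4102 were called (44.6%, against 61.1%), 2300 higher (25%, against 28.8%) and 1802 lower (19.6%, against 32.3%). The higher ones made up 56.1% of these calls, or 46.0% after normexp correction. These comparisons share the day 0 or the day 14 lacZ arrays with one another and with the day 14 comparison.

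Probes of one unit did not always move together. Of the 2440 units with 2 or more kept probes, 1612 had a called probe in the averaged comparison, and in 751 of those 1 probe alone was called. All kept probes were higher in 184 units and lower in 160, and 179 units held probes called in both directions. Over the means of the 11 groups, probes of one unit had a median correlation of 0.45 with each other, and the 818 regions kept on both strands had a median correlation of 0.15 between their strands (both measured on the same arrays, and given as a description). Both strands were called in 163 of these regions, in the same direction in 92. A unit is represented below by the kept probe whose mean level across the 22 arrays was highest, and its other probes are given beside it. Where arrays were not well above background, the fitted difference is not an exact value, and such units have no order among the largest. A probe kept through the single group in which it was high had to differ there. A representative probe kept only through groups of the vector in which it was high was chosen by that difference as well. The values of both kinds are given as a description, with no p-value from the main fit.

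The largest fitted rise was that of the forward unit at chr2:113880070-113887230, 13996 bases from the nearest probe of Actc1, which encodes cardiac alpha-actin and lies on the opposite strand. Its level was -4.86 and -4.38 on the day 0 arrays, -4.85 and -5.16 on the day 3 lacZ arrays, and not well above background on any later lacZ array. In MGT cells it was -0.81 and -0.73 on day 3, 0.60 and 0.60 on day 5, 0.95 and 0.73 on day 7, 1.46 and 1.49 on day 10, and 1.46 and 1.29 on day 14. Every MGT array lay above every lacZ and day 0 array. The averaged difference was 6.85 (SE 0.11, adjusted p = 2.77e-14, limma), and as a bound MGT was at least 35.8-fold higher on day 5, at least 109-fold on day 7, at least 208-fold on day 10 and at least 68.1-fold on day 14. These bounds set the MGT mean against the lowest signal well above background on the lacZ arrays, or the probe's own signal where that was higher. That lowest signal is taken over all probes, so the bounds are approximate. Where the probe's own signal replaced it on both arrays, the figure is the measured difference and no lower limit, and it is marked so below. The unit's other probes rose by 5.84 and 4.05 on average (adjusted p = 5.98e-12 and 2.2e-05). The gap to lacZ grew by 4.14 between day 3 and day 10 for the representative probe (adjusted p = 1.01e-05), and the other 2 probes had changes of 1.70 and -0.82 over that time. Actc1 itself differed by 8.69 (SE 0.05). Between day 0 and day 14 in lacZ cells, the Actc1 probe fell by 5.26, and the lincRNA probe, at -1.37, ended below background.

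A second leading unit, the forward strand of chr9:78107225-78118850, 3.14 kb from Dppa5b on the same strand, was present in untransduced fibroblasts, was low or undetected in lacZ cells and was high in MGT cells. Dppa5b belongs to a family of developmental pluripotency associated genes. The level was 1.07 and 0.93 on day 0. In lacZ cells it was -2.66 and -2.49 on day 3 and -1.38 and -1.45 on day 5, and from day 7 it was above background on 1 array of 6, at -4.49. MGT levels were 0.43 and 0.30 on day 3, 0.64 and 0.72 on day 5, 2.07 and 2.39 on day 7, 2.66 and 2.38 on day 10, and 1.69 and 1.39 on day 14. The groups of the 2 vectors did not overlap on any day, and the averaged difference was 5.30 (SE 0.14, adjusted p = 1.94e-12). In lacZ cells the day 14 level was at least 52.4-fold lower than on day 0 (adjusted p = 1.94e-09), while MGT day 14 minus day 0 was 0.54 (adjusted p = 0.144). The adjoining probe of this unit rose by 4.96. The probe next to it, of the overlapping region chr9:78104935-78116974, rose by 2.64 (SE 0.07, adjusted p = 2.98e-12), with 0.07 and -0.07 on day 0, -3.44 to -2.04 over the 10 lacZ arrays and -1.2 to 1.31 over the 10 MGT arrays. The Dppa5b probe itself differed by 0.58 (adjusted p = 0.00269), and 2 of the 5 probes of chr9:78107225-78118850 were kept.

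The rest of the 8 largest fitted rises came from 5 other units, and in each of them the nearest named gene on the array lay on the same strand and was called higher too. At chr8:83210957-83219451, 94 bases from Frem3, which encodes an extracellular matrix protein, the forward unit had -4.18 and -4.59 on day 0, -4.80 to -1.89 in lacZ cells (median -3.05) and -3.43 to 0.63 in MGT cells (median -0.82). Both vectors climbed with time, so their ranges overlap, but on each day the MGT arrays lay above the lacZ arrays. The averaged difference was 2.23 (SE 0.07, adjusted p = 1.3e-11), that of Frem3 was 2.48, and the unit's other probes rose by 2.24 and 1.81. From day 0 to day 14 the unit rose by 2.27 in lacZ cells and by 4.92 in MGT cells. On day 5 its lacZ arrays were not well above background. The reverse unit at chr10:62267317-62269871, 6.73 kb from Tet1, a dioxygenase that oxidises 5-methylcytosine, lay between -5.74 and -3.09 in lacZ cells and between -2.33 and -0.78 in MGT cells, without overlap. It rose by 2.47 (SE 0.19, adjusted p = 1.67e-07), its other probes by 2.17 and 2.46, and Tet1 by 2.25.

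Near Itgb1bp2, which encodes the muscle protein melusin, the single probe of chrX:98671653-98672118 (23.8 kb away) ran from -7.00 to -4.46 in lacZ cells and from -3.29 to -2.47 in MGT cells, where 5 of the 10 lacZ arrays were not well above background. The fitted difference was 2.28 (SE 0.11, adjusted p = 7.7e-10), and the gene differed by 3.52. MGT was 6.54-fold higher on day 10 (the measured difference) and at least 3.08-fold higher on day 14. The reverse unit at chr1:183783306-183834531, 7.35 kb from Enah, a regulator of actin filament assembly, had -3.35 and -3.32 on day 0, -7.12 to -5.0 in lacZ cells and -4.24 to -2.72 in MGT cells. Of the lacZ arrays, 4 were above background (days 3 and 7). Its fitted difference was 2.47 (SE 0.12, adjusted p = 8.08e-10), and Enah differed by 1.73. MGT was at least 2.24-fold higher on day 5 and at least 3.61-fold on day 14, and 7.14-fold higher on day 10 (the measured difference). Of its other probes 2 rose, by 2.41 and 2.92, and the last had -0.13 (adjusted p = 0.609). In lacZ cells this unit was at least 2.6-fold lower on day 14 than on day 0, when both arrays were above background (adjusted p = 1.5e-07). At chr3:40966969-40976585, 106 kb from Pgrmc2, the reverse unit ran from -5.53 to -3.74 in lacZ cells and from -3.14 to -1.54 in MGT cells, with a fitted difference of 2.20 (SE 0.14, adjusted p = 1.83e-08). Of the lacZ arrays 5 were above background, and MGT was 7.42-fold higher on day 10 (the measured difference) and at least 2.87-fold higher on day 14. One further probe of it rose by 2.76, the other had 0.55 (adjusted p = 0.0763), and Pgrmc2 differed by 0.70.

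The largest fitted fall was that of the forward unit at chr19:60220577-60238494, 310 bases from the probe of E330013P04Rik, a transcript without a known role, on the same strand. It was not well above background on day 0. LacZ levels lay between -3.79 and -2.24 (median -2.95), and MGT levels were not well above background before day 14, when they were -4.95 and -5.68. No MGT array reached the lowest lacZ array. The fitted averaged difference was -3.24 (SE 0.25, adjusted p = 1.15e-07), which with 8 of 10 MGT arrays below background does not rank the unit above those that follow. As a bound, MGT was at least 4.4-fold lower on day 3, 3.5-fold on day 5, 10.6-fold on day 7 and 5.01-fold on day 10. The other probes of the unit fell by 3.03 and 2.52, and the E330013P04Rik probe by 2.53. In lacZ cells the unit was at least 7.78-fold higher on day 14 than on day 0 (adjusted p = 4.99e-05).

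The single probe of chr13:21856097-21859200 (reverse strand, 12.7 kb from the histone gene H2ac15) stood far above the background of every array. It read 5.83 and 5.92 on day 0 and 6.18 to 6.52 over the lacZ arrays. In MGT cells it was 5.60 and 5.71 on day 3, 3.91 and 3.79 on day 5, 4.12 and 4.21 on day 7, 3.48 and 3.38 on day 10, and 2.97 and 2.92 on day 14. All MGT arrays lay below all lacZ and day 0 arrays, with an averaged difference of -2.31 (SE 0.04, adjusted p = 8.4e-14). The H2ac15 probe differed by -0.42 (adjusted p = 7.57e-05).

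At chr15:74474704-74474770, an interval of little more than a probe's length 24.8 kb from Arc, a gene induced by neuronal activity that lies on the opposite strand, the level was 1.07 and 1.05 on day 0. It ran from -1.98 to 0.04 in lacZ cells and from -5.01 to -0.95 in MGT cells. On each day the MGT arrays were below the lacZ arrays, and the averaged difference was -2.49 (SE 0.09, adjusted p = 8.27e-11). From day 0 to day 14 the probe fell by 2.67 in lacZ cells and fell by 6.06 in MGT cells. At chr19:58222540-58223077, 15.2 kb from Atrnl1 on the same strand, lacZ levels of -2.47 to -1.12 stood above MGT levels of -4.93 to -3.38 without overlap (difference -2.42, SE 0.09, adjusted p = 7.13e-11), and Atrnl1 differed by -0.63. That unit has 1 kept probe of 3.

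Near Wincr1, itself a long noncoding RNA, the reverse unit at chr4:88745770-88774130 had -4.67 and -4.38 on day 0 and -5.24 to -2.55 in lacZ cells, and was not well above background in MGT cells before day 14. MGT was at least 4.5-fold lower on day 3, 2.99-fold on day 5, 6.24-fold on day 7 and 1.62-fold on day 10, where the fitted averaged difference was -2.90 (SE 0.27, adjusted p = 8.58e-07). The fitted differences of its other probes were -2.60 and -2.30. Its day 14 difference of -1.12 did not pass the test (adjusted p = 0.161), and Wincr1, 15.4 kb away on the opposite strand, differed by -1.11. The forward unit at chr14:106562325-106660675, whose probe holds AATAAA 2 times, ran from -2.10 to -0.80 in lacZ cells. Its MGT arrays lay between -4.99 and -3.14 apart from the first day 10 array at -1.09, and its averaged difference was -2.27 (SE 0.22, adjusted p = 1.53e-06). On day 10 the difference was -1.12 (adjusted p = 0.117), with MGT arrays at -1.09 and -3.47. The other probes of the unit fell by 2.35 and 3.24.

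Several units that moved alike lay side by side, and the stretches described next, found after the values were seen, hold at least 3 units that passed the test and differed by at least 1 in the same direction within 500 kb. There were 9 such stretches. Units in them overlap in sequence, and no test of their grouping was made. At Piezo2, which encodes a mechanically gated ion channel, 9 kept units overlapped chr18:63222554-63526504, of which 6 fell and 2 rose, and 24 of 27 probes fell. The reverse unit chr18:63222554-63223369 was below background on all MGT arrays of days 5, 7 and 10, where MGT was at least 2.31-fold, 6.83-fold and 3.15-fold lower. Its lacZ levels ran from -4.82 to -3.08, and its fitted averaged difference was -2.39 (SE 0.14, adjusted p = 1.06e-08). The reverse unit chr18:63525907-63526504 fell by 2.23 (SE 0.10, adjusted p = 3.71e-10), with -1.81 to -0.57 in lacZ cells and -4.04 to -2.49 in MGT cells, and chr18:63355660-63369610 on the same strand fell by 2.15. The Piezo2 probes nearest to the first and second of these, 20.5 and 256.4 kb away, differed by -2.03 and -2.51. On day 14 the difference of chr18:63222554-63223369 was -0.38 (adjusted p = 0.375).

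The imprinted interval that holds the noncoding RNAs Meg3 and Mirg had 9 kept units that overlap chr12:110842154-110899517, of which 6 were called lower and 0 higher, and 17 of 25 probes were called lower. Forward units there differed by -0.86, -1.0, -1.02 and -1.07, and reverse units by -1.04 and -0.25. The named probes of Meg3 (-0.93, adjusted p = 4.96e-10) and Mirg (-0.99) were called lower as well, and the kept probe that shares 41 bases with the Mir410 hairpin fell by 0.57 (adjusted p = 0.000211). Further along, 1 probe of the reverse unit chr12:110944403-110988678, named because it went the other way, was above background on all 10 MGT arrays, at -4.34 to -2.39, on 1 lacZ array and on 0 day 0 arrays. It was kept through MGT groups alone, so its fitted difference of 2.93 (SE 0.08) is a description, and the size rests on lacZ arrays near background. The unit's other 3 kept probes had -0.44, 0.05 and 0.25, none of which passed the test.

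Rising stretches are listed by a named gene that was nearest to at least 1 of their units: Enah, Maml3, Zbtb20, Zfat, Ttll7 and Zfp955b. At Enah, 4 of 7 units and 14 of 24 probes rose, the reverse unit chr1:183832694-183834125 by 1.69 and the forward unit chr1:183783306-183834531 by 0.57. In the stretch 17.2 to 114.1 kb from Maml3, a coactivator of Notch signalling, 3 of 3 units and 9 of 9 probes rose. Among them were chr3:51804655-51805883 (reverse) by 2.18 and chr3:51890691-51891781 (reverse) by 1.46. At Zbtb20, a zinc finger repressor, 4 of 4 units and 25 of 26 probes rose, by 1.12 to 1.25 on the forward strand and by 0.94 on the reverse strand. Zbtb20 was the nearest named gene of chr16:43623175-43624069 (forward) alone, 4.9 kb away. For the other units there it was Tigit, 8.6 to 11.9 kb away. The next stretch lay 255.6 to 273.5 kb from its nearest named gene, Zfat, another zinc finger gene, whose probe differed by 0.18. There 3 reverse units rose by 1.54, 1.26 and 1.33 and the forward unit was not called. For Ttll7, a tubulin polyglutamylase, 3 forward units at 4.1 to 85.6 kb rose by 1.34, 1.10 and 1.25. Near Zfp955b 4 of 4 units were called higher, the forward ones by 1.34 and 1.56. The reverse ones had 1.04 and 0.84 and were detected in 2 groups and in 1 group, and of 6 probes 5 were called higher and 1 lower. The representative probe of the forward unit chr17:33425193-33449090 overlaps the nearest Zfp955b probe, which also differed by 1.34. The counts at Enah also hold a reverse unit, chr1:183951156-183986156, that was detected in 1 group alone. Its nearest named gene was Srp9, 105.3 kb away, and its averaged difference was 1.06, with 2.96 on day 7. Without that unit the stretch would not hold 3 units that differed by at least 1, so its listing rests on it. In the last stretch, chr8:89996710-90061169, 3 forward units rose by 1.37, 1.63 and 1.14 and 1 reverse unit fell by 0.13.

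Close to a named gene and on its strand, lincRNA units and genes often differed in the same direction. Of the 3766 kept units 3743 had a named gene probe on their chromosome, at a median distance of 20984 bases, and 3171 of these pairs had values for both. In 925 pairs both were called in the averaged comparison, in the same direction in 614 (66.4%). Within 5 kb on the same strand, 165 of 413 pairs were both called, and 144 of these (87.3%) went the same way. Where both also differed by at least 1, 21 of 21 did. The pairs within 5 kb include some whose probes overlap, as at Zfp955b (distance 0, both differing by 1.34). Overlapping probes on one strand read shared sequence, so their agreement was set beforehand. Such pairs were not counted apart. Within 5 kb on opposite strands, 39 of 67 pairs (58.2%) went the same way. From 5 to 50 kb the shares were 67.2% on the same strand and 56.2% on the opposite strand, and beyond 50 kb they were 63.8% and 57.9%. Under the other scalings the same-strand share within 5 kb lay between 86.2% and 89.5% and the opposite-strand share between 56.2% and 62.5%. The correlation of the differences across the 413 same-strand pairs within 5 kb was 0.61, and across the 285 opposite-strand pairs 0.16. Both members of a pair were read on the same arrays, and units are not independent of one another.

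Units near heart muscle genes moved in both directions. Of the 14 units whose nearest gene was among 47 sarcomere genes, 3 were called higher and 7 lower (median -0.09, where the median of all 3766 units was -0.06, with 18.3% higher and 24.2% lower). In 10 of these pairs both were called, in the same direction in 3. At Xirp2, which encodes an actin-binding protein of striated muscle, the gene probe rose by 4.15. The forward units chr2:67412478-67412959 and chr2:67411703-67412293, 48.6 and 48.2 kb away on its strand, fell by 0.87 and 0.82, and each had all 3 of its probes called lower. LacZ levels of the second unit ran from -2.11 to 0.29 and MGT levels from -1.88 to -1.25. These ranges overlap, because on day 14 the lacZ arrays were at -1.42 and -2.11 and the MGT arrays at -1.53 and -1.64.

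Of 7 units nearest to heart transcription factor genes, 1 was called higher (0 after normexp correction) and 3 lower (median -0.15), and in 0 of 3 pairs with both called did unit and gene agree in direction. The 2 units nearest to genes of cardiac excitation and calcium handling were not called (median 0.31), although 1 of them was called lower after quantile normalization.

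Of 17 units nearest to fibroblast and matrix genes, 1 was called higher (0 after normexp correction) and 7 lower (median -0.23), and 5 of 6 pairs with both called agreed in direction. Near Tnc, which encodes the matrix protein tenascin C, the forward unit chr4:63810346-63810958 had -1.97 and -2.33 on day 0 and was above background on 5 lacZ arrays and 1 MGT array. MGT was at least 3.28-fold lower than lacZ on day 3 and 3.06-fold on day 7, with a fitted averaged difference of -1.95 (adjusted p = 2.56e-06) and -0.93 and -1.24 for the other probes. From day 0 to day 14 in lacZ cells it was at least 5.91-fold lower (adjusted p = 3.4e-06). Tnc, 136 kb away on the opposite strand, fell by 0.95, and by 3.38 from day 0 to day 14 in lacZ cells. The reverse unit chr4:63736566-63744848, 61.6 kb from Tnc on its strand, was above background on both day 0 arrays, 1 lacZ array and 0 MGT arrays, so no fold between the vectors can be given. Its call (fitted difference -0.90, adjusted p = 0.0132) was lost after quantile normalization (-0.51, adjusted p = 0.231) and on days 3 to 10 (-0.74, adjusted p = 0.0619). At Hoxb4, a homeobox gene, the forward unit chr11:96175764-96176029 fell by 1.33 and its other probes by 0.63 and 0.59, where Hoxb4, 6.86 kb away, fell by 0.50. The representative probe was above background on 9 lacZ and 6 MGT arrays. Near Col6a2, a collagen VI chain gene, the probes of chr10:76114741-76115073 disagreed, the representative one falling by 1.11 and the adjoining one rising by 1.43. In the deposited table the former had -0.11 (adjusted p = 0.175).

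Some units were detected with one vector alone. Of the 3766 kept units, 37 had a representative probe that was well above background on no lacZ array and was called higher. In 14 it was above background on no MGT array and was called lower. The share of all kept probes that did so was not counted, and detection was highest on the day 14 MGT arrays, which had a slide of their own. The 2 counts are therefore not read as a trait of lincRNA units. Detection chose these units, so the counts are a description. The reverse unit chr4:99548675-99598875, 23.8 kb from Efcab7, was above background on 10 of 10 MGT arrays, from -5.50 to -3.54, and was at least 2.39-fold higher on average. It was kept through MGT groups alone. On day 0 its arrays disagreed, with -2.27 and a level below background, and the unit's other kept probe had -0.33 (adjusted p = 0.139). The reverse unit chr12:12876192-12918398, 47.5 kb from Mycn and also kept through MGT groups alone, stood out on day 10 at -2.57 and -2.87. There it was at least 11.3-fold above lacZ, with MGT arrays at -4.83 or lower on the other days. Its averaged bound was 1.12-fold. At chr15:38630866-38640611 (reverse) the averaged bound was 1.01-fold with 7 MGT arrays above background, and at chrX:99206168-99207202 (forward) no bound above 1 could be given on average.

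Of the 4 units with the largest fitted falls among those seen with lacZ alone, 3 rested on a single day of lacZ cells and were kept through that group. The averaged call of each of the 4 was lost under at least 1 of the alternatives run. The reverse unit chr7:71231097-71233680 was above background on the 2 day 5 lacZ arrays, at -1.36 and -2.18, where it was at least 11.2-fold higher than in MGT cells, and on no other array. The forward unit chr15:102026122-102033597 was above background on the day 5 lacZ arrays, at -1.92 and -3.69, and on 1 day 0 array, at -2.41, which gave a bound of 5.45-fold on day 5. For chr16:40463859-40464481 (reverse) the only arrays above background were day 10 lacZ, at -3.94 and -4.82. The forward unit chr2:112030834-112031446, kept through lacZ groups alone, was at least 1.25-fold lower on average in MGT, although the day 5 lacZ arrays read -5.22 and -1.64.

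Beside the units near Actc1 and Dppa5b, the units with the largest changes of the MGT to lacZ difference between day 3 and day 10 lay near background on most arrays, and each of the 6 lost its call under at least 1 of the alternatives run. The values are those of the fit and not exact changes. The unit chr5:119954412-119954855 (reverse) was above background on the 2 day 10 MGT arrays alone, through which it was kept, and its fitted change was 3.04. The gap moved up by 2.97 in chr10:8662761-8665101 (reverse, adjusted p = 0.0265), where the day 10 MGT arrays read -5.41 and -3.22. It moved down by 4.80 in chr7:100195448-100195894 (reverse), whose other kept probe had -1.2, and by 3.44 in chr2:116802549-116803286 (reverse). In chr13:15947521-15999246 and chr13:37633225-37640309 (both forward), which moved down by 4.63 and 3.79, the day 10 lacZ arrays read -3.35 and -1.21 in the first and -3.34 and -1.17 in the second. The neighbouring probe of the latter had a change of 1.43.

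From day 0 to day 14 other units changed with either vector. The forward unit chr14:77077374-77086910, near 1700108F19Rik, was below background on day 0 and at -2.29 and -2.08 on day 14 in lacZ cells, at least 10.6-fold higher (adjusted p = 1.08e-10), and its other kept probe rose by 2.20. With MGT it was at least 4.04-fold above day 0 on day 14. The 3 probes of chr14:103751075-103769725 (forward) rose in both cultures, the representative one by at least 12.8-fold with lacZ and 15.9-fold with MGT. In the deposited table its lacZ change was 0.65 and did not pass the test (adjusted p = 0.437). Near Hmgn3, a nucleosome-binding protein gene, the forward unit chr9:82991830-82999937 was at least 7.89-fold higher on day 14 than on day 0 with lacZ and at least 15.0-fold with MGT, and its probes rose by 3.69 to 4.44 and by 4.80 to 5.21. The forward unit chr16:23543837-23560153, 53.6 kb from Rtp4, climbed day by day in MGT cells, across slides 1, 2 and 4. It read -5.23 on the day 0 array where it was above background, -3.07 to -2.62 over all lacZ arrays, and in MGT cells -2.28 and -2.37 on day 3 and 0.14 and 0.01 on day 14. Its MGT minus lacZ difference of 1.86 (adjusted p = 7.84e-13) came with a rise of 5.40 from day 0 to day 14 with MGT and 2.40 with lacZ.

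Both strands of an interval near Mrpl39, a mitochondrial ribosomal protein gene, were high in untransduced fibroblasts. The reverse unit chr16:84702353-84710928 had -0.63 and -0.85 on day 0 and -4.64 and -5.26 on day 14 with lacZ, a fall of 4.21, and its other probes fell by 3.04 and 2.82. The forward unit chr16:84708695-84708806, which lies inside it, had -0.23 and -0.04 on day 0 and fell by 4.15. With MGT the day 14 differences from day 0 were -2.71 and -2.55, and both were higher by 1.02 in MGT than in lacZ on average. Falls from day 0 to day 14 with MGT were also large for chr13:21264306-21264482 (reverse, at least 13.4-fold, adjusted p = 0.000751) and chr5:77084398-77086144 (reverse, at least 6.13-fold, adjusted p = 9.21e-07). In these units both kept probes fell, and the MGT arrays of day 14 were below background. The reverse unit chr6:37630192-37682692, kept through day 14 lacZ alone, was at least 7.51-fold higher there than on day 0, while the deposited table gave 0.49 with no call (adjusted p = 0.154). Apart from the day 14 lacZ arrays, at -3.29 and -2.08, it was above background on 1 day 5 MGT array, at -1.92.

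Kept probes that overlap the start of a RefSeq gene were few. Within RefSeq's windows around gene starts (sequence matches over the whole probe), 49 kept probes lay on the gene's strand, of which 9 were called higher and 7 lower, and 59 lay on the opposite strand, 4 higher and 18 lower. Of all lincRNA probes 20.8% were higher and 19.4% lower in this comparison, and these few probes were not tested against them. At Pappa2, which encodes a pregnancy-associated metalloproteinase, 3 probes of chr1:160888257-160910594 on the gene's strand fell by 1.85, 1.69 and 1.2, and the gene's probe fell by 2.49. The probe that shares 49 bases with the Mirlet7c-2 hairpin rose by 0.31 (SE 0.04, adjusted p = 3.25e-05), and the one that shares 58 bases with the Mir8110 hairpin fell by 0.43 (SE 0.12, adjusted p = 0.0105). Another kept probe, not printed above, shares 36 bases with the Mirlet7c-2 hairpin. It rose by 1.11 (SE 0.44, adjusted p = 0.0487), with lacZ levels that ran from -6.27 to -1.25.

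Long noncoding RNA genes that have a name of their own sit outside these region probes, and 25 of a list of 42 were measured. Of these, 7 were called higher (5 after normexp correction) and 11 lower, with a median of -0.19, where 22.3% of all kept probes were higher and 32.2% lower (median -0.06). Mhrt, the antisense transcript of the cardiac myosin locus, was above background on 0 day 0 arrays, 1 lacZ array and 8 MGT arrays. It was kept through MGT groups alone, so its fitted difference of 2.93 (SE 0.16) is a description, and the size rests on lacZ arrays near background. Firre rose by 0.84. The imprinted H19 fell by 1.57, and the snoRNA host genes Snhg12 and Gas5 fell by 1.40 and 0.94.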

How the data were processed

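Total RNA was labelled with Cy3 and hybridised to Agilent mouse 8x60K arrays, 1 per sample, per the labels. Each deposited file holds 1 array's spot intensity from Feature Extraction 10.7.3.1, per the file headers: background-subtracted and detrended, with no normalization between arrays. A second deposited table, for which the submitters' processing notes name limma, gives 1 intensity per name with scale and centring not stated, and served as an alternative.

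Control and outlier spots were left out, spots of a probe averaged, and each array's 75th percentile subtracted from the log2 intensity. One model of 11 group means over 22 arrays was fitted to all 38813 kept probes (limma 3.58.1, lmFit and eBayes, R 4.3.3, 11 residual and 1.638 prior degrees of freedom), with Benjamini-Hochberg adjustment within each of 9 comparisons. On simulated data 173 of 200 probes changed by 1 were recovered in the averaged comparison, among 187 calls over 38813 probes. Coordinates are mm9, from the array design. RefSeq tables (GRCm38.p6) gave symbols (26155 probes by accession, 3136 by symbol, 910 by synonym, 9286 unnamed) and sequence matches only, so exon and intron placement was not analysed here.

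Members and lists were chosen with earlier results of these data known. Named units were the 8 largest rises and falls with the same sign on all 5 days and detection with both vectors, the 4 largest per direction detected with 1 vector or called for a change over time, and the 8 largest near listed genes, 1 of which is not reported here. Alternatives were the background correction, percentile, quantile normalization, filter, deposited table, samples in the fit, replicate block, days and single arrays left out. Numbers do not pair replicates: over 55 pairs of same-numbered arrays, deviations from group means correlated between -0.0807 and 0.104 (median 0.00243), with 1 pair over 0.1.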

Additional observations from a re-analysis of the deposited data

Results flagged for a closer look

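The difference between MGT and lacZ was itself tested for a change from day 3 to day 10, in the same limma model, and 411 lincRNA probes passed (9.41% of all kept probes did). Among the named units, the gap moved up by 4.54 in chr9:78107225-78118850 (forward) and by 4.14 in chr2:113880070-113887230 (forward), both well above background on every MGT array. Neither was well above background on the day 10 lacZ arrays, so these sizes are fitted values and not exact. The other probes of the chr2 unit changed less. It moved up by 3.04 in chr5:119954412-119954855 (reverse), which was kept through day 10 MGT alone, so that its value is a description, and by 2.97 in chr10:8662761-8665101 (reverse). The gap moved by -4.80 in chr7:100195448-100195894 (reverse), by -4.63 in chr13:15947521-15999246 (forward), by -3.79 in chr13:37633225-37640309 (forward) and by -3.44 in chr2:116802549-116803286 (reverse). With either the day 3 or the day 10 arrays near background in these last 6 units, the size of the change depends on how background was treated. After normexp correction the change was 1.25 in chr5:119954412-119954855, 0.81 in chr10:8662761-8665101, -2.1 in chr7:100195448-100195894 and -1.05 in chr2:116802549-116803286. None of these passed the test then, while the chr13 units kept their call.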

How the results depend on the processing

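Of the 30 units named for the averaged comparison, 27 kept direction and call after normexp correction, 29 with the percentile over probes above background on every array, 27 after quantile normalization, 25 in the deposited table, 29 with the replicate block and 28 on days 3 to 10. In the deposited table chr12:12876192-12918398 turned to -0.12 (adjusted p = 0.551). Of the 8 units named for the change from day 3 to day 10, 4 kept their call after normexp correction, 4 in the deposited table, 4 with only the arrays compared and 5 when single arrays were left out. For chr13:15947521-15999246 the deposited table gave -0.08. Of the 8 units named for lacZ day 14 minus day 0, 6 kept their call in the deposited table, and the 8 for MGT kept it under each alternative run.

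Counts of lincRNA probes called moved by more than 1.5 times as follows. Normexp correction gave 535 on day 3, 978 on day 5, 873 on day 7, 1007 on day 10 and 209 for the change. Without a filter on dim probes the averaged comparison had 7067 calls, day 14 had 6684 and MGT day 14 minus day 0 had 6603. That fit also took in the probes left out elsewhere, from the 16194 lincRNA probes on the array in place of the 9199 kept. Its counts are therefore not out of the same number of probes. A fit of only the arrays compared gave 1403 on day 3, 599 on day 10, 381 on day 14 and 1990 for lacZ day 14 minus day 0. Days 3 and 5 alone (slide 1) gave 1998 and days 7 and 10 alone (slide 2) gave 2269, of which 1810 and 2072 were among the 3693.

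Leaving out single arrays gave 3364 to 4536 calls for the averaged comparison, 544 to 1266 on day 3, 1097 to 2255 on day 5, 915 to 1863 on day 7, 1148 to 2326 on day 10, 1875 to 3831 on day 14, 220 to 754 for the change, 3560 to 4824 for lacZ and 3252 to 4687 for MGT day 14 minus day 0. A group left with 1 array is assumed to vary like the others. On day 3 the count fell to 544 and 559 without either lacZ array and to 571 without the second MGT array, on day 5 to 1097 without the first MGT array, and on day 14 to 1876 and 1875 without either MGT array. The change had 237 and 220 without either day 3 lacZ array, 261 and 229 without either day 3 MGT array, and 754 without either day 14 lacZ array. With the replicate block, the counts were 3669, 917, 1652, 1353, 1605 and 2806 (averaged and days 3 to 14), 382 (change), 4272 and 4058. The cause of these shifts was not tested. Apart from the averages within a slide, the share of all kept probes was not counted under these alternatives. The shifts are therefore not read as particular to lincRNA probes. With 2 arrays a group, precision is limited, and lincRNA probes near background have poorly measured differences.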
